A study of Mus musculus with 15 samples.

Results

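Primary chondrocytes, the cells that build cartilage, from embryonic mouse long bones were compared after exposure to UO126 or to SB202190, a pair of small-molecule kinase inhibitors that were given at the same dose and for the same time. The comparison rests on 6 of the 15 arrays of the series, 3 with UO126 and 3 with SB202190, chosen by the inhibitor named in the titles, and all genes measured on them were considered. The 3 arrays of cells given the vehicle, DMSO, show on which side of untreated levels each value lay. The series also holds 3 arrays each with LY294002 and with TSA, and these entered the shared estimate of the spread and the signal filter. The cells came from tibiae, femurs and humeri of CD1 embryos at day 15.5, were freed by enzymatic digestion, and were plated as a monolayer in serum-containing medium overnight. UO126 or SB202190, both dissolved in DMSO, was then given at 10 µM in fresh medium with ascorbic acid and β-glycerophosphate, and RNA was taken after 24 h (for UO126 replicate 1 the treatment text reads up to 24 h). The labels call the arrays biological replicates without naming the animals or culture preparations behind each one, so the p-values measure the spread between these arrays. Each array is a pool of all cells in its culture, so fewer cells of a type and less RNA per cell cannot be told apart.

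UO126 blocks MEK1 and MEK2, the kinases that switch on ERK1 and ERK2. Active ERK induces genes that feed back on the pathway, among them dual-specificity phosphatases, which remove phosphate from MAP kinases, the Sprouty and Spred inhibitors, and Ets and Fos family transcription factors. The labels of the series place SB202190 beside UO126 as a compound aimed at MEK/ERK signalling, whereas this compound is best known for blocking the p38 kinases, another MAP kinase branch, which is switched on by stress and cytokines and acts in chondrocytes as well. In the growth plate, chondrocytes proliferate, then enlarge in the step called hypertrophy and mineralize their matrix, under the control of Indian hedgehog, parathyroid hormone-related protein, FGF, Wnt and BMP signals.

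Signals were in the units of Affymetrix's MAS5 algorithm, which scales the trimmed mean of each array to a fixed value. The 6 arrays resembled each other in signal distribution, with 42.5 to 44.2% of probe sets at a signal of 50 or more. Arrays of different inhibitors correlated at 0.9549 to 0.9689 on the log2 scale, lower than arrays of one inhibitor (0.9742 to 0.9756 within UO126 and 0.9767 to 0.9807 within SB202190).

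Of 21765 probe sets with a mean signal of 50 or more in at least 1 group, 1782 (8.19%) differed between UO126 and SB202190 in limma at a Benjamini-Hochberg adjusted p under 0.05, 894 higher and 888 lower with UO126. With 1 probe set per gene, the one of highest mean log2 signal, 1148 of 11751 genes passed (9.77%), 586 higher (4.99%) and 562 lower (4.78%), and 123 of the higher and 67 of the lower genes differed at least 2-fold. By contrast, UO126 differed from DMSO at 584 probe sets (2.68%; 1032 with the replicate number as a block, which pairs these arrays) and SB202190 differed from DMSO at 619 (2.84%, and 1224 with the block). Both of these comparisons use the same 3 DMSO arrays, whereas the difference between the inhibitors does not involve DMSO at all. The 1782 calls fell to 1079 without UO126 replicate 3, 1032 without SB202190 replicate 1, 1155 without SB202190 replicate 2 and 1003 when each array was centred on its median. The plot of all genes shows differences in both directions along the whole range of signal.

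**Figure D1:**
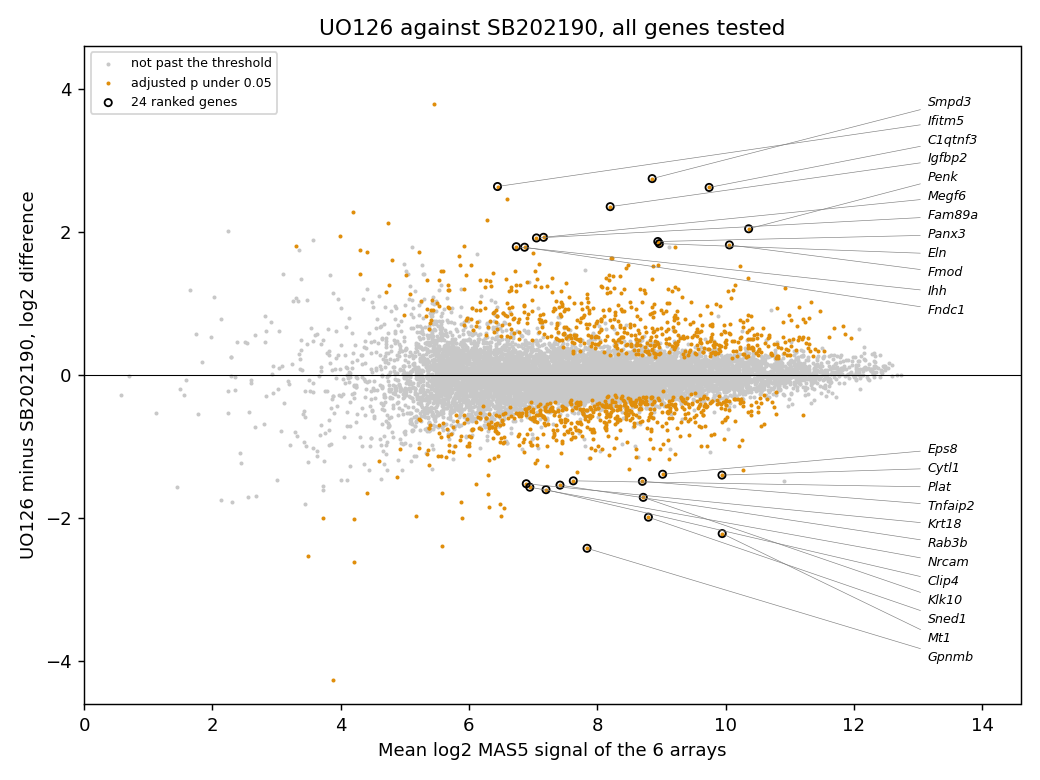
Each point is 1 gene, with the mean log2 signal of the 6 arrays on the horizontal axis and the log2 difference, UO126 minus SB202190, on the vertical axis. Orange points passed an adjusted p of 0.05 (586 above and 562 below 0), and circles mark the 12 genes in each direction named in the text.

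Genes were then grouped by role into 28 lists and 11 sets of cell type markers. For each list, the share of its measured members that passed was read beside the shares of all genes, 4.99% higher and 4.78% lower. Lists of hypertrophy, cartilage matrix, hedgehog and smooth muscle genes lay mainly on the side of higher signals with UO126, and ERK feedback, lysosome and metallothionein genes mainly on the side of lower signals. No member of the cholesterol synthesis (20 measured), endoplasmic reticulum chaperone (23), macrophage and leukocyte (9) or skeletal muscle (13) lists passed in this limma fit, and no alternative called more than 1 member of any of them in either direction.

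**Figure D2:**
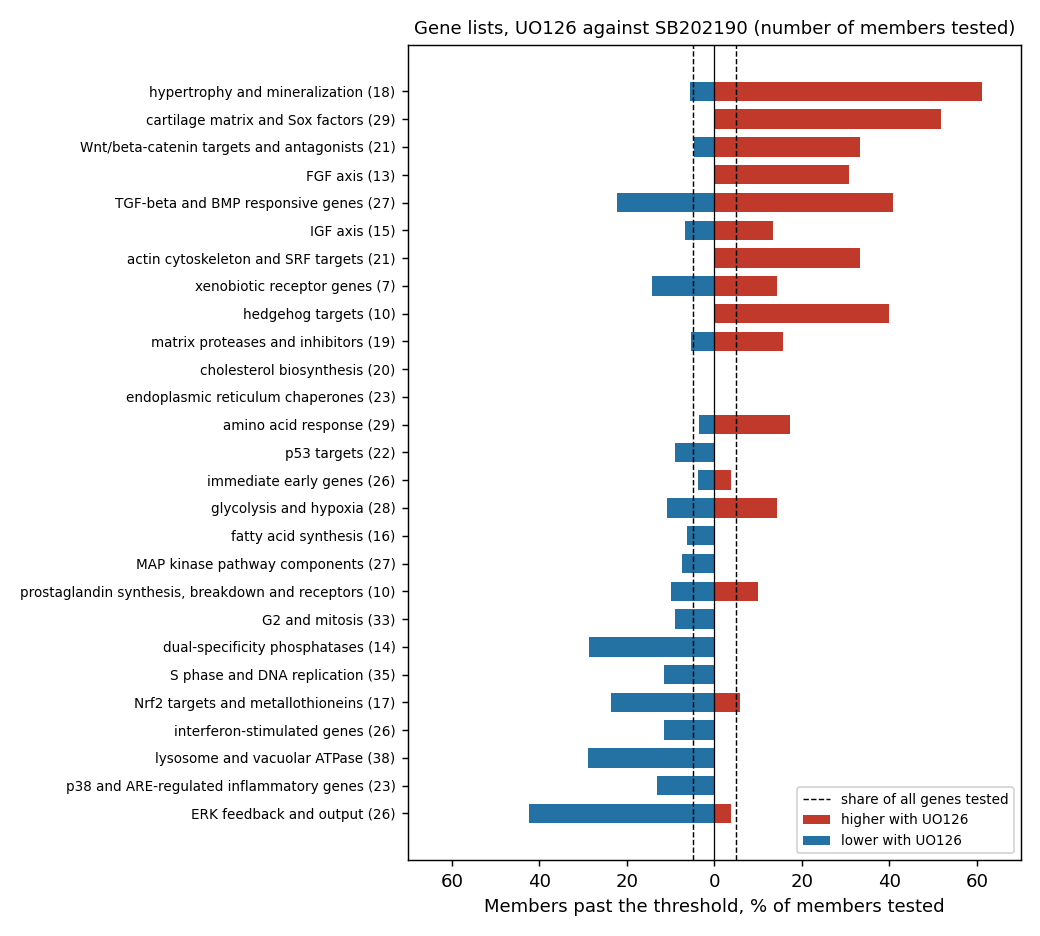
For each gene list, the bar to the right is the percent of measured members that were higher with UO126 than with SB202190, and the bar to the left the percent that were lower. Dashed lines mark the shares of all genes, 4.99% and 4.78%.

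Of the 28 lists, that of ERK feedback and output had the largest share of members on the lower side. Of 26 measured members, 11 were lower and 1 was higher with UO126 than with SB202190, with a median log2 difference of -0.49 beside -0.02 over all genes. Against DMSO, 9 of the 26 were lower with UO126 (1.57% of all genes were), 5 to 9 without any 1 of the 9 arrays, and 1 was lower with SB202190 (1.51% of all genes were). Dusp6, the phosphatase that acts on ERK in the cytoplasm, had signals of 238, 259.6 and 196 with UO126, against 728, 585 and 434 with SB202190 and 498, 481 and 432 with DMSO. All 3 UO126 arrays lay below every other array, and the log2 difference between the inhibitors was -1.31 ± 0.24 (SE, adjusted p = 0.00271). Dusp5, a nuclear phosphatase that acts on ERK, had signals of 47.6, 65.6 and 30.6 with UO126, against 176, 279.5 and 116 with SB202190 and 74.0, 123 and 98.5 with DMSO. Here the SB202190 values lay around or above those of DMSO, and the log2 difference between the inhibitors was -1.97 ± 0.47 (adjusted p = 0.0168). That call ended without UO126 replicate 3, SB202190 replicate 1 or SB202190 replicate 2 (adjusted p of 0.0542 to 0.0868, and 0.000877 to 0.0868 over all alternatives). Dusp4, a further nuclear phosphatase, had signals of 10.2, 12.1 and 14.1 with UO126, against 41.6, 32.6 and 38.9 with SB202190 and 24.1, 29.0 and 30.8 with DMSO. The groups did not overlap (adjusted p = 0.00064), but every one of these signals was under 50, where a ratio is imprecise. Dusp4 was kept by the signal filter only through the arrays of another compound, LY294002 or TSA. The Dusp4 call ended when signals under 50 were set to 50 (adjusted p = 1; 0.000206 to 1 over all alternatives), and the list then had 10 lower members.

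Among transcription factors, Etv5, an Ets factor induced by ERK, had signals of 209.8, 232 and 205 with UO126, against 408, 437 and 464 with SB202190 and 432, 325 and 324 with DMSO (log2 difference -1.02 ± 0.13, adjusted p = 0.000127). Fosl1, a Fos family member, had signals of 123, 173 and 128 with UO126, against 261, 228 and 235 with SB202190 and 282, 324 and 371 with DMSO. For both genes the UO126 arrays were the lowest of the 9. The EGF receptor ligands Hbegf and Ereg behaved likewise. Hbegf gave 146, 109 and 125 with UO126, against 251, 251 and 226 with SB202190 and 228, 233 and 292 with DMSO, a log2 difference of -0.94 ± 0.15 (adjusted p = 0.00089). Ereg was 2.07-fold lower with UO126 than with SB202190 (adjusted p = 0.00227), with signals of 149 to 188 against 265 to 476. Spred2, an inhibitor of Raf activation, was lower by a smaller amount, at 333, 279 and 320.0 with UO126, against 479, 454 and 429.5 with SB202190 and 370.4, 384 and 328 with DMSO. The SB202190 arrays were the highest of the 9 for this gene, and the difference from UO126 passed (adjusted p = 0.00142). Another probe set of Hbegf (adjusted p = 0.124), of Spred2 (0.149) and of Fosl1 (0.512) did not pass. Of 2 further probe sets of Etv5, 1 did not pass (0.158).

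Il1rn, the interleukin 1 receptor antagonist, differed from the pattern of the phosphatases in that SB202190 was on the lower side of DMSO too. Its signals were 86.6, 101 and 99.8 with UO126, against 215, 228 and 250.5 with SB202190 and 324, 332 and 362 with DMSO, so the groups formed separate steps. The difference between the inhibitors was -1.27 ± 0.14 on the log2 scale (adjusted p = 3.86e-05). Of 2 further probe sets of Il1rn, 1 passed (adjusted p = 0.00414) and 1 did not (0.241). Of the remaining members, Spry2 (adjusted p = 0.02) lost its call without UO126 replicate 1 or 3 or SB202190 replicate 1 or 2 (0.0646 to 0.0861; 0.00216 to 0.0861 over all alternatives). Phlda1 (0.0107) lost its call without SB202190 replicate 1 (0.0561; 0.000487 to 0.058 over all alternatives). Cdc25a, the phosphatase that activates cyclin-dependent kinases and the only member that passed on the higher side, lost its call without any 1 of the 6 arrays (0.0791 to 0.135; 0.0238 to 0.294 over all alternatives). Spry1, another Sprouty inhibitor, did not pass, with signals of 101, 137 and 78.8 with UO126, against 86.5, 88.2 and 76.7 with SB202190.

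The 250 bases before the annotated starts of Dusp5, Dusp6, Etv5, Il1rn, Spred2 and Spry1 (RefSeq, GRCm38.p6) were searched for binding motifs of factors downstream of MAP kinases. The windows of Dusp5, which has 1 annotated start, and of the most upstream of 3 starts of Il1rn are shown because they hold the CArG and AP-1 motifs found. Capitals mark the motifs searched on both strands: the CArG box, bound by SRF, the Ets core GGAAGT, which reads ACTTCC on the strand shown, and the AP-1 motif TGANTCA.
Dusp5, chr19:53528895-53529144, plus strand: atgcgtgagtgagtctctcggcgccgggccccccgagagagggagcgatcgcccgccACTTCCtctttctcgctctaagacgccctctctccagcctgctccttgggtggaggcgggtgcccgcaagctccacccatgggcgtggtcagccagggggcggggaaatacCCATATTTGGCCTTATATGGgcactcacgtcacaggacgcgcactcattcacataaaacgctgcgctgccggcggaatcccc
Il1rn, chr2:24336610-24336859, plus strand: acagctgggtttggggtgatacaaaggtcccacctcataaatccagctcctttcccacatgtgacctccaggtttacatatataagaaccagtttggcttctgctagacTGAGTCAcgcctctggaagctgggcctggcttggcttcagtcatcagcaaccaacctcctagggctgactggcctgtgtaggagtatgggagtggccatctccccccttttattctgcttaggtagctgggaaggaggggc
The Dusp5 window held a pair of adjoining CArG boxes, at 82 to 73 and at 72 to 63 bases before the start, and an Ets core at 193 to 188 bases before it. The Il1rn window held an AP-1 motif at 141 to 135 bases before the start, and the windows of the other 2 starts of Il1rn held none of the motifs. An Ets core was also present before 1 of 2 starts of Etv5 and before the start of Spred2, while the windows of Dusp6 and Spry1 held no motif searched. A CArG box occurred in 1.47% of 32851 such windows, an Ets core in 19.7% and an AP-1 motif in 6.75%, so the Ets core is common. A match of letters is a description and says nothing on whether a factor was bound in these cells.

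Of 27 measured kinases and regulators of the MAP kinase pathways, none was higher and 2 were lower with UO126 (4.78% of all genes were lower). These were Map2k6, a kinase that activates p38, and Mknk2, a kinase that phosphorylates the translation factor eIF4E. Mknk2 gave 881, 864 and 739.7 with UO126, against 1396, 1247 and 1173 with SB202190 and 818, 682 and 597 with DMSO (log2 difference -0.62 ± 0.13, adjusted p = 0.00677). Map2k6 gave 131, 129.8 and 96.5 with UO126, against 222, 229.6 and 192 with SB202190 and 132, 92.1 and 64.2 with DMSO. For both, SB202190 was the group that stood apart from DMSO. The Map2k6 call (adjusted p = 0.0166) ended without UO126 replicate 3 or SB202190 replicate 1 or 2 (0.0649 to 0.0883; 0.003 to 0.0883 over all alternatives). Mapk14, which encodes p38α, had signals of 666, 448 and 559 with UO126, against 618, 594 and 582 with SB202190, and the groups overlapped (log2 difference -0.12 ± 0.12).

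Some genes induced within minutes of a stimulus varied widely between replicates. Fos gave 604, 635 and 161 with UO126, against 1099.6, 1427 and 336 with SB202190, and replicate 3 was the lowest array of each group. Dusp1, a phosphatase that acts on p38 and JNK, gave 1281, 1452 and 715 with UO126, against 1767, 1690.5 and 880.3 with SB202190, again with replicate 3 lowest in both. Of 26 measured members of the immediate early list, 1 was higher and 1 lower with UO126. Klf10, a factor induced by TGF-beta, was lower, at 237, 171 and 243 with UO126, against 375, 348 and 357 with SB202190 (log2 difference -0.75 ± 0.13, adjusted p = 0.00169). Klf2, higher with UO126 (adjusted p = 0.0299), lost its call without UO126 replicate 2 or 3 or SB202190 replicate 1 or 3 (0.0708 to 0.127; 0.00463 to 0.127 over all alternatives).

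Across all genes, the 12 with the largest difference on each side, among those past the threshold with a signal of at least 200 in the group where they were higher and no overlap between arrays, were examined next. This choice fixed their direction and their lack of overlap. On the higher side, the 12 were 3.45-fold to 6.71-fold higher with UO126, and none lost its call when any 1 array was left out. Smpd3, a sphingomyelinase needed for skeletal mineralization, had signals of 942, 1088 and 1687 with UO126, against 134, 151 and 283 with SB202190 and 357, 409.6 and 672 with DMSO. UO126 and SB202190 lay on opposite sides of DMSO, and the log2 difference between them was 2.75 ± 0.35 (adjusted p = 0.000142). C1qtnf3, a secreted protein of developing cartilage, gave 1818, 2459 and 2158 with UO126, against 323, 382 and 335 with SB202190 and 957, 954 and 1041 with DMSO, a log2 difference of 2.62 ± 0.13 (adjusted p = 2.66e-08). Penk, the enkephalin precursor, gave 2296, 2932 and 2832 with UO126, against 607, 677 and 660.1 with SB202190 and 1421, 1632 and 1491 with DMSO, a log2 difference of 2.04 ± 0.10. For these genes too the DMSO arrays lay between the inhibitors with no overlap. Igfbp2, an IGF binding protein, gave 466, 904 and 702 with UO126, against 119, 129.7 and 143 with SB202190 and 203, 258 and 263 with DMSO, a log2 difference of 2.35 ± 0.21.

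The other genes of the higher side included matrix proteins and bone genes. Eln, which encodes elastin, gave 863, 1034 and 952 with UO126, against 290.2, 249 and 257 with SB202190 and 341, 488 and 460.3 with DMSO. Fmod, fibromodulin, a proteoglycan that binds collagen fibrils, gave 1782, 1959 and 2314 with UO126, against 462, 628 and 633 with SB202190 and 699, 978 and 1003 with DMSO. Ifitm5, an osteoblast membrane protein, gave 148, 289 and 239 with UO126, against 41.7, 12.6 and 81.3 with SB202190, and its low SB202190 values make the size of the difference imprecise. Panx3, a channel of hypertrophic chondrocytes and osteoblasts, was 3.65-fold higher with UO126 (adjusted p = 0.00466). Megf6, Fam89a and Fndc1 completed the 12 together with Ihh, described further on.

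**Figure D3:**
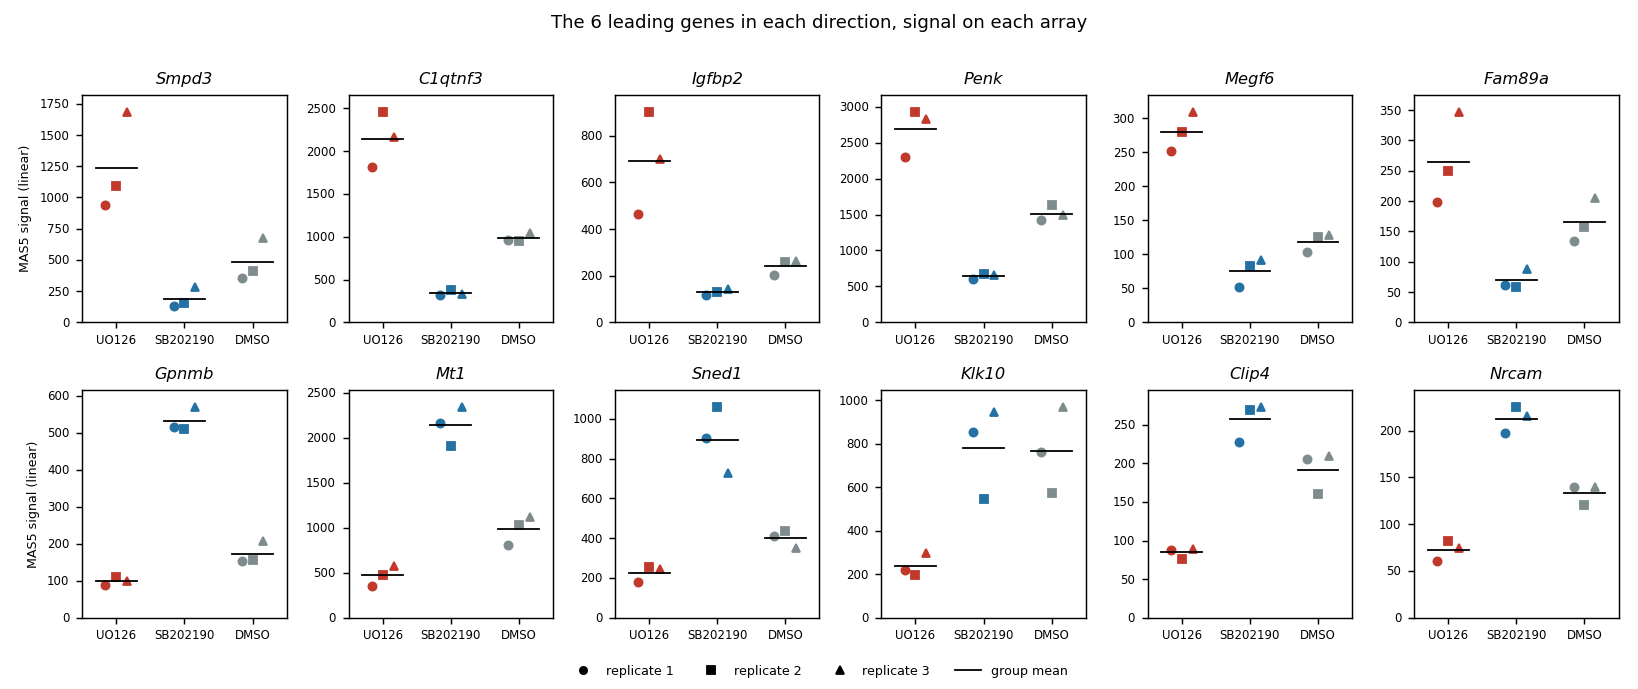
MAS5 signals of 12 genes with large differences, 1 panel per gene, with UO126, SB202190 and DMSO from left to right on a linear axis that starts at 0. Points are single arrays with a shape for each replicate number, lines are group means, and in every panel the 3 UO126 arrays lie on one side of the 3 SB202190 arrays.

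The 12 genes of the lower side were 2.61-fold to 5.35-fold lower with UO126, and all 12 stayed past the threshold without any 1 array. Gpnmb, a transmembrane glycoprotein of lysosome-related organelles, had signals of 89.4, 109 and 99.6 with UO126, against 515, 509 and 569.7 with SB202190 and 152, 155 and 206 with DMSO. SB202190 stood well above both other groups and UO126 was below DMSO, and the log2 difference between the inhibitors was -2.42 ± 0.14 (adjusted p = 9.52e-08). Sned1, an extracellular matrix protein, gave 179, 254 and 246 with UO126, against 903, 1061 and 725 with SB202190 and 409, 435 and 351 with DMSO (log2 difference -1.99 ± 0.19). Nrcam, a cell adhesion molecule best known from neurons, gave 61.0, 81.8 and 74.1 with UO126, against 198, 226 and 216 with SB202190 and 139.6, 121 and 140.3 with DMSO (log2 difference -1.57 ± 0.14). In these 3 genes the DMSO arrays again lay between the inhibitors.

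In others SB202190 was near DMSO and UO126 stood apart. Klk10, a kallikrein-related protease, gave 218, 194 and 299 with UO126, against 853, 547 and 945 with SB202190 and 762, 574 and 970.3 with DMSO. Eps8, an actin regulator downstream of receptor tyrosine kinases, gave 329, 319 and 316 with UO126, against 775, 877 and 869 with SB202190 and 715, 793 and 760.0 with DMSO. Krt18, a keratin of simple epithelia, gave 80.1, 68.9 and 62.7 with UO126, against 207, 205 and 192 with SB202190 and 260.1, 249 and 229.6 with DMSO. The SB202190 and DMSO arrays overlapped for Klk10 and Eps8, while for Krt18 the SB202190 arrays were all below those of DMSO. Plat, tissue plasminogen activator, was 2.79-fold lower with UO126 (adjusted p = 9.85e-06), and Tnfaip2, a TNF-induced protein, 2.80-fold lower (2.68e-05). Cytl1, a cytokine-like protein that chondrocytes secrete, went against most cartilage genes, at 527, 569 and 747 with UO126, against 1401, 1580.2 and 1849 with SB202190 and 1092, 1264 and 1538 with DMSO (adjusted p = 0.000487). Clip4 and Rab3b completed the 12 genes of the lower side together with Mt1, described further on.

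Of the 28 lists, that of hypertrophy and mineralization had the largest share of members on the higher side. Of 18 measured members, 11 were higher and 1 lower with UO126 than with SB202190, with a median log2 difference of 0.89. The count of higher members was 9 to 11 when 1 of the 6 arrays was left out. Against DMSO, 2 of the 18 were higher and 1 was lower with UO126 (1.88% of all genes were higher and 1.57% lower), which became 8 higher and 1 lower with the replicate number as a block and 0 to 2 higher without any 1 of the 9 arrays. With SB202190 none was higher than DMSO and 3 were lower (1.51% of all genes were), 0 to 2 without any 1 of the 9 arrays. Ihh, the hedgehog ligand of prehypertrophic chondrocytes, had signals of 153, 169 and 304 with UO126, against 53, 56.5 and 62.9 with SB202190 and 69.2, 88.9 and 146 with DMSO. UO126 replicate 3 was the highest array and all 3 UO126 arrays lay above DMSO (log2 difference between the inhibitors 1.79 ± 0.28, adjusted p = 0.000968). Ibsp, bone sialoprotein, a matrix protein of mineralizing tissue, gave 1992, 2056 and 2040.4 with UO126, against 571, 675 and 904 with SB202190 and 1855, 1928 and 1574 with DMSO. For Ibsp the SB202190 arrays lay far below DMSO and the UO126 arrays slightly above it (log2 difference between the inhibitors 1.53 ± 0.33, adjusted p = 0.0091). Alpl, the alkaline phosphatase that releases phosphate for mineral, gave 393, 514 and 587 with UO126, against 147, 201 and 226 with SB202190 and 226, 322 and 376 with DMSO (log2 difference 1.38 ± 0.22, adjusted p = 0.00114).

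The transcription factors Sp7, Mef2c and Runx3 of this list moved the same way. Mef2d and Dlx5 did not pass, and Runx2 was not among the measured members. Sp7, which drives osteoblast differentiation, gave 259, 291 and 281 with UO126, against 124, 112 and 156 with SB202190 and 174, 182 and 211 with DMSO (log2 difference 1.10 ± 0.19, adjusted p = 0.00169). Mef2c, needed for hypertrophy, was 1.86-fold higher with UO126 (adjusted p = 0.00087), and Runx3 1.83-fold (0.00448). Pth1r, the receptor of parathyroid hormone-related protein, was 2.30-fold higher (adjusted p = 0.0134), and its call ended without UO126 replicate 3 or SB202190 replicate 1 or 2 (0.0505 to 0.0739; 7.33e-05 to 0.0739 over all alternatives). The remaining higher members were Smpd3, Panx3, Sgms2, which makes sphingomyelin, and the phosphate transporter Slc20a1, whose call (adjusted p = 0.0134) ended without UO126 replicate 3 or SB202190 replicate 2 (0.0578 to 0.0736; 0.00876 to 0.0809 over all alternatives). Col10a1, the collagen that defines hypertrophic chondrocytes, did not pass (log2 difference 1.79 ± 0.56, adjusted p = 0.0635, and 0.054 to 0.271 without any 1 array), but did with only the arrays of the inhibitors in the fit (0.0342). Col10a1 also passed with the replicate number as a block (5.27e-06), although the numbers are not taken to pair the inhibitors. Its signals were 659.8, 819 and 2061 with UO126, against 196, 289.9 and 476 with SB202190 and 219.8, 374 and 1049 with DMSO, with replicate 3 the highest array in every group and no overlap between the inhibitors (30.3% of all genes had none). Mmp13, Vegfa and Mgp, also measured members of this list, did not pass either. The only member that passed on the lower side was Ank, a membrane protein that exports pyrophosphate, an inhibitor of mineral formation. Ank gave 350.1, 368 and 399 with UO126, against 736, 938 and 843 with SB202190 and 769, 857 and 901 with DMSO, so that UO126 alone lay below DMSO (log2 difference between the inhibitors -1.17 ± 0.11, adjusted p = 8.55e-06).

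**Figure D4:**
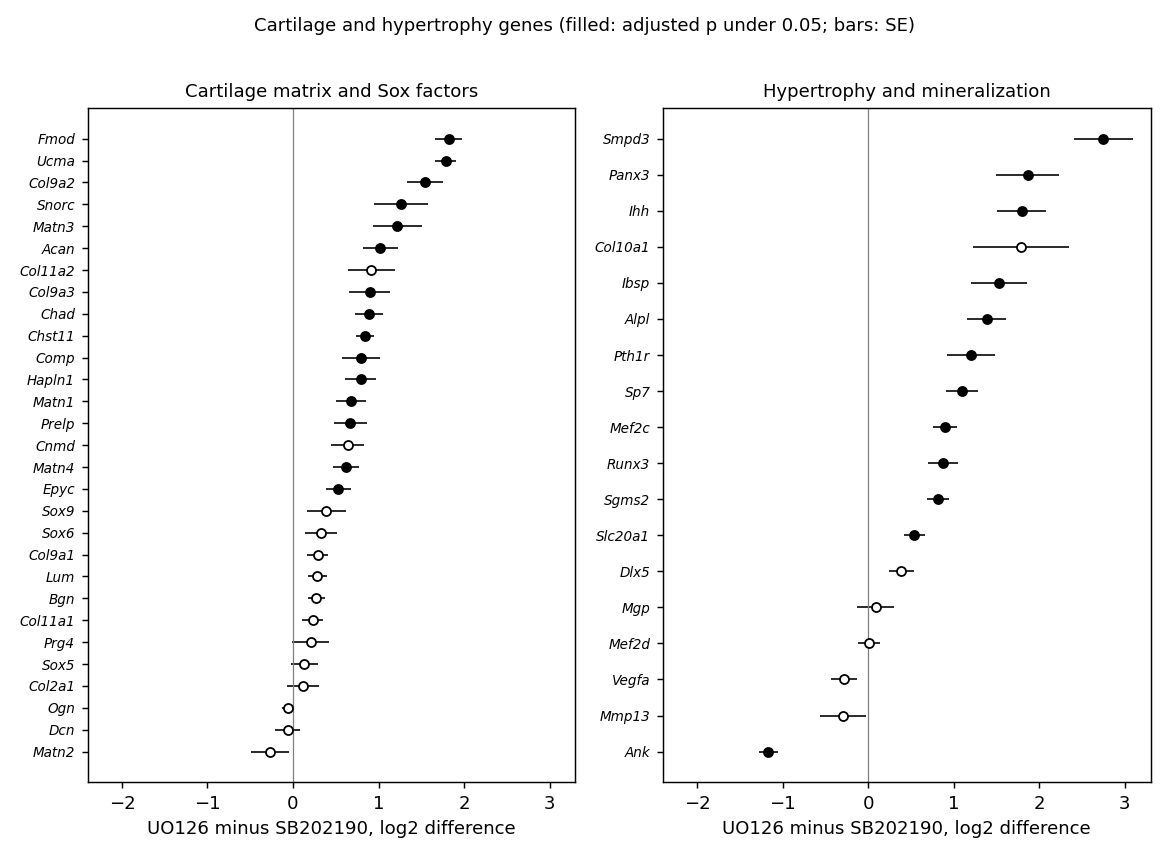
Log2 differences, UO126 minus SB202190, of the measured genes of the hypertrophy and cartilage matrix lists, with bars of 1 standard error. Filled points passed an adjusted p of 0.05, which 12 of 18 hypertrophy genes and 15 of 29 cartilage genes did, and Ank is the only filled point below 0.

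Cartilage matrix genes lay on the same side, by smaller amounts and with less firm calls. Of 29 measured members, 15 were higher and none was lower with UO126, with a median log2 difference of 0.64. The count fell to 6 without UO126 replicate 3 or SB202190 replicate 1, 9 without UO126 replicate 2, 8 without SB202190 replicate 2 and 10 with each array centred on its median. It was 17 with the replicate number as a block, although the numbers are not taken to pair the inhibitors. Ucma, a small protein of the upper growth plate, had signals of 1100.2, 1111 and 1096 with UO126, against 304, 312 and 344 with SB202190 and 774, 725 and 899.7 with DMSO (log2 difference 1.79 ± 0.12, adjusted p = 3.7e-07). DMSO lay between the inhibitors and nearer to UO126. Acan, which encodes aggrecan, the main cartilage proteoglycan, gave 3197, 3299 and 4765 with UO126, against 1614, 1852 and 2020.1 with SB202190 and 1938, 2305 and 3301 with DMSO (log2 difference 1.02 ± 0.21, adjusted p = 0.00559). Col9a2, a chain of collagen IX, gave 463, 858 and 577 with UO126, against 206, 229 and 195 with SB202190 and 257, 286 and 259 with DMSO (log2 difference 1.55 ± 0.21, adjusted p = 0.000286). Chst11, a chondroitin sulfotransferase, was 1.79-fold higher with UO126 (adjusted p = 0.000129), and Chad, chondroadherin, 1.85-fold (0.00313).

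The remaining calls of the cartilage list, Col9a3, Comp, Matn1, Matn3, Matn4, Hapln1, Epyc, Prelp and Snorc, each ended without UO126 replicate 3 and without SB202190 replicate 1, and those of 8 of them, all but Hapln1, without at least 1 further array. Their adjusted p-values without such an array reached 0.0601 for Hapln1, the link protein of aggrecan, and 0.198 for Comp, cartilage oligomeric matrix protein. Matn3, a matrilin, shows the spread behind this. It gave 2668, 2599 and 3827 with UO126, against 935, 1126 and 1993 with SB202190 and 1848, 2062 and 3252 with DMSO, with replicate 3 the highest array of each group (adjusted p = 0.0158, and 0.066 to 0.0872 without UO126 replicate 3 or SB202190 replicate 1 or 2). With all arrays in the fit, the other probe sets of Hapln1 (adjusted p = 0.00155, 0.00274 and 0.00165), Matn3 (0.000653) and Prelp (0.00716) passed as well. Those of Col9a3 did not (0.639 and 0.0896). Neither Col2a1, the main collagen of cartilage, nor Sox9, the transcription factor that specifies chondrocytes, passed. Col2a1 gave 5023, 5779.5 and 7232 with UO126, against 5489.8, 5430.1 and 5532 with SB202190, and the UO126 arrays spanned the SB202190 ones (log2 difference 0.12 ± 0.19, adjusted p = 0.809). Sox9 gave 647, 879 and 1039 with UO126, against 581, 528 and 855 with SB202190, also with overlap (log2 difference 0.39 ± 0.23, adjusted p = 0.372).

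Some genes of the hedgehog pathway were higher with UO126 as well. Of 10 measured members of the pathway, 4 were higher and none lower. In 3 members that did not pass, all UO126 arrays lay below all SB202190 arrays, with log2 differences down to -0.22. Such a lack of overlap, in either direction, was seen in 30.3% of all genes. With all probe sets of a gene averaged, 4 members were higher and 1 was lower. Ptch1, the hedgehog receptor and a direct target of the pathway, had signals of 1557, 1441 and 1756 with UO126, against 644, 733 and 727 with SB202190 and 1283, 1208 and 1369.9 with DMSO (log2 difference 1.17 ± 0.12, adjusted p = 1.58e-05). Gli1, the transcription factor used as a readout of the pathway, gave 119, 145 and 113 with UO126, against 45.6, 56.8 and 56.1 with SB202190 and 90.9, 126 and 116 with DMSO (log2 difference 1.24 ± 0.20, adjusted p = 0.001). For both genes the SB202190 arrays were the lowest, and for Gli1 the UO126 and DMSO arrays overlapped. Hhip, which binds hedgehog ligands, gave 80.1, 69.3 and 92.4 with UO126, against 24.4, 40.1 and 25.8 with SB202190 and 56.1, 54.9 and 57.5 with DMSO (adjusted p = 0.00922). Another probe set of Ptch1 (adjusted p = 0.165) and another of Hhip (0.0799) did not pass. Gli2 passed (adjusted p = 0.0168) but lost its call without UO126 replicate 1 or SB202190 replicate 3 (0.063 to 0.0682; 0.00894 to 0.109 over all alternatives). Smo, the signal transducer, gave 1086, 1011 and 1314 with UO126, against 937, 889 and 1174 with SB202190 and did not pass.

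In the FGF list 4 of 13 measured members were higher with UO126 and none was lower (2 higher without SB202190 replicate 1). Fgfr3, the receptor that restrains growth plate chondrocytes, had signals of 1753, 1701 and 1916 with UO126, against 951, 1023 and 1055 with SB202190 and 1079, 1002 and 1193 with DMSO. UO126 stood apart and SB202190 overlapped DMSO (log2 difference between the inhibitors 0.83 ± 0.10, adjusted p = 0.000111). Gpc1, a heparan sulfate proteoglycan, differed in that SB202190 was below DMSO, at 779.8, 790.4 and 819 with UO126, against 495, 419 and 467 with SB202190 and 691, 677 and 706 with DMSO (adjusted p = 7.79e-05). The DMSO arrays lay between the inhibitors with no overlap. The calls of Fgfrl1, a receptor without a kinase domain, and of the ligand Fgf9 each ended when a single array was left out. Fgfrl1 (adjusted p = 0.00954) was lost without UO126 replicate 3 or SB202190 replicate 1 (0.0544 to 0.0558; 9.66e-05 to 0.0779 over all alternatives). Fgf9 (0.0181) was lost without UO126 replicate 1 or SB202190 replicate 1 or 2 (0.0545 to 0.0815; 0.0094 to 0.853 over all alternatives).

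Among Wnt targets and antagonists, 7 of 21 measured members were higher and 1 was lower with UO126, with a median log2 difference of 0.43. The members Axin2 (limma adjusted p = 0.17), Lef1 (0.0886) and Notum (0.857) did not pass. Frzb, a secreted Wnt antagonist of cartilage, gave 463, 496 and 516 with UO126, against 177, 253 and 241 with SB202190 and 239, 223 and 216 with DMSO (log2 difference 1.15 ± 0.14, adjusted p = 8.8e-05). Ccn4, a Wnt-induced matricellular protein, gave 877, 720.5 and 778 with UO126, against 296, 232 and 302 with SB202190 and 629.7, 466 and 521 with DMSO (log2 difference 1.52 ± 0.14, adjusted p = 9.85e-06). Wif1, which binds Wnt proteins, gave 164, 141 and 182 with UO126, against 78.5, 91.7 and 79.3 with SB202190 and 264, 262 and 228 with DMSO. Both inhibitors lay below DMSO for Wif1, with SB202190 the lower of them (log2 difference 0.96 ± 0.16, adjusted p = 0.0013). Nkd1, Apcdd1 and Sfrp2, all of which restrain Wnt signalling, were 2.36-fold, 1.66-fold and 1.64-fold higher with UO126. Sfrp4, the lower member, lost its call (adjusted p = 0.0271) without UO126 replicate 1 or 3 or SB202190 replicate 2 or 3 (0.0637 to 0.112; 0.00189 to 0.112 over all alternatives). Ccn5 (0.0384) lost its call without any 1 of the 6 arrays (0.0693 to 0.124; 0.00293 to 0.124 over all alternatives).

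The TGF-beta and BMP list moved in both directions, with 11 of 27 measured members higher and 6 lower with UO126 (7 and 4 without UO126 replicate 3, 8 and 4 without SB202190 replicate 1). The ligand Tgfb3 gave 716, 756 and 731 with UO126, against 373, 424 and 394 with SB202190 and 442, 488 and 473 with DMSO (log2 difference 0.89 ± 0.08, adjusted p = 4.18e-06). Pmepa1, a TGF-beta target that inhibits Smad signalling, gave 371, 336 and 317 with UO126, against 155, 154 and 155 with SB202190 and 326, 263 and 312 with DMSO (log2 difference 1.14 ± 0.13, adjusted p = 6.48e-05). The extracellular BMP antagonists were on the higher side. Chrdl1 gave 235, 279.6 and 240.5 with UO126, against 93.8, 110.3 and 90.2 with SB202190 and 114, 111 and 89.6 with DMSO (log2 difference 1.36 ± 0.14, adjusted p = 1.52e-05). Nog, noggin, was 2.90-fold higher (adjusted p = 0.00142), and Fst, follistatin, which binds activins, 1.76-fold (0.000123).

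Of the Id genes, BMP targets that encode inhibitors of helix-loop-helix factors, Id1, Id2 and Id3 were lower with UO126, whereas Id4 did not pass (log2 difference 0.16 ± 0.12, adjusted p = 0.53). Id1 gave 636, 762 and 649 with UO126, against 1286, 1131 and 1209.7 with SB202190 and 1060.0, 933 and 1080.3 with DMSO (log2 difference -0.83 ± 0.14, adjusted p = 0.00159). Id3 gave 1187, 1195 and 1131 with UO126, against 1847, 1930.0 and 1951 with SB202190 and 1197, 1190.4 and 1420.2 with DMSO (log2 difference -0.71 ± 0.10, adjusted p = 0.000278). For Id1 the DMSO arrays lay between the inhibitors, and for Id3 UO126 and DMSO overlapped. Id2 was 1.99-fold lower with UO126 (adjusted p = 0.00465). In the IGF list, 2 of 15 measured members were higher, Igfbp2 and Igfbp5, and 1 was lower, Igfbp6. Igfbp5 gave 2188, 2915 and 3178 with UO126, against 1488, 1603 and 1474 with SB202190 and 1890.1, 2301 and 2605 with DMSO. Igfbp6 gave 201, 208 and 187 with UO126, against 425, 473 and 394 with SB202190 and 400.0, 394 and 321 with DMSO. The binding proteins of one family therefore differed in opposite directions.

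Lysosomal genes were lower with UO126 than with SB202190. Of 38 measured members, none was higher and 11 were lower, with a median log2 difference of -0.27, and the count was 9 to 11 when 1 of the 6 arrays was left out but 6 with each array centred on its median. Against DMSO, 2 were lower with UO126, Gpnmb and Mitf (1.57% of all genes were), and 6 were higher with SB202190 (2.01% of all genes were), 3 to 6 without any 1 of the 9 arrays. Mitf, a transcription factor of lysosomal and pigment genes, had signals of 162, 110.1 and 118 with UO126, against 317, 352 and 319 with SB202190 and 373, 399 and 368 with DMSO. UO126 was far below both other groups (log2 difference from SB202190 -1.36 ± 0.16, adjusted p = 7.65e-05). Ctsb, the protease cathepsin B, gave 1968, 1837 and 2074 with UO126, against 2715, 2824 and 3083 with SB202190 and 2106, 2249 and 2377 with DMSO (log2 difference -0.55 ± 0.08, adjusted p = 0.000439). The DMSO arrays lay between the inhibitors, nearer to UO126. Gla, the enzyme α-galactosidase A, was 1.79-fold lower with UO126 (adjusted p = 0.000546). Flcn and Fnip2, which form a complex that signals nutrient state from the lysosome, were 1.60-fold and 1.73-fold lower (adjusted p = 0.00403 and 0.00461). Glb1, Psap, Asah1 and Ctsa lost their calls when arrays were centred (0.0905 for Asah1). Ctsa (adjusted p = 0.00954) also lost its call without SB202190 replicate 2 (0.0502; 0.00141 to 0.0555 over all alternatives), and Neu1 (0.0216) without UO126 replicate 1 or 3 or SB202190 replicate 2 or 3 (0.0639 to 0.0922; 0.0141 to 0.0922 over all alternatives). Ctsk, cathepsin K, gave 446, 443 and 609 with UO126, against 419.6, 419 and 517 with SB202190, with overlap.

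The metallothioneins, which bind zinc and other metals, differed by more. Mt1 had signals of 349, 477 and 578 with UO126, against 2158, 1908 and 2342 with SB202190 and 804, 1027 and 1122 with DMSO, so the inhibitors lay on opposite sides of DMSO (log2 difference -2.22 ± 0.17, adjusted p = 1.77e-06). Another probe set named for Mt1 did not pass (adjusted p = 0.805). Mt2 gave 673, 1031 and 679 with UO126, against 2130.0, 1918 and 1832 with SB202190 and 1269, 1261 and 1825 with DMSO (log2 difference -1.33 ± 0.18, adjusted p = 0.000233). Metallothionein genes are close copies of each other, so probes may read more than 1 of them. Of 17 measured metallothioneins and targets of Nrf2, the factor of the oxidative stress response, 4 were lower and 1 was higher with UO126 than with SB202190. Gclc, which makes glutathione, gave 368, 288 and 342 with UO126, against 493, 526 and 535 with SB202190 and 339, 284 and 285 with DMSO (adjusted p = 0.000973). Gsta4, a glutathione transferase, gave 436, 404 and 416 with UO126, against 733, 748 and 661 with SB202190 and 445, 482 and 385 with DMSO (adjusted p = 0.000185). For both genes UO126 overlapped DMSO and SB202190 was higher than either. Another probe set of Gclc did not pass (adjusted p = 0.123). The higher member was Sod3, the extracellular superoxide dismutase, at 189, 285 and 275 with UO126, against 104, 152 and 118 with SB202190 and 239, 478 and 452 with DMSO. Its call (adjusted p = 0.0233) ended without UO126 replicate 2 or 3 or SB202190 replicate 1 or 3 (0.0676 to 0.107; 0.000319 to 0.107 over all alternatives). Against DMSO, 2 of the 17 were higher and 2 lower with UO126 (3 and 3 with the replicate number as a block), while 8 were higher and 1 was lower with SB202190 (5 to 8 and 1 without any 1 of the 9 arrays). Of all genes, 1.88% were higher and 1.57% lower with UO126, and 2.01% higher and 1.51% lower with SB202190. Hmox1, heme oxygenase, did not pass between the inhibitors, at 882, 672 and 969 with UO126, against 1162, 979 and 1073 with SB202190 and 376, 560.0 and 646 with DMSO.

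**Figure D5:**
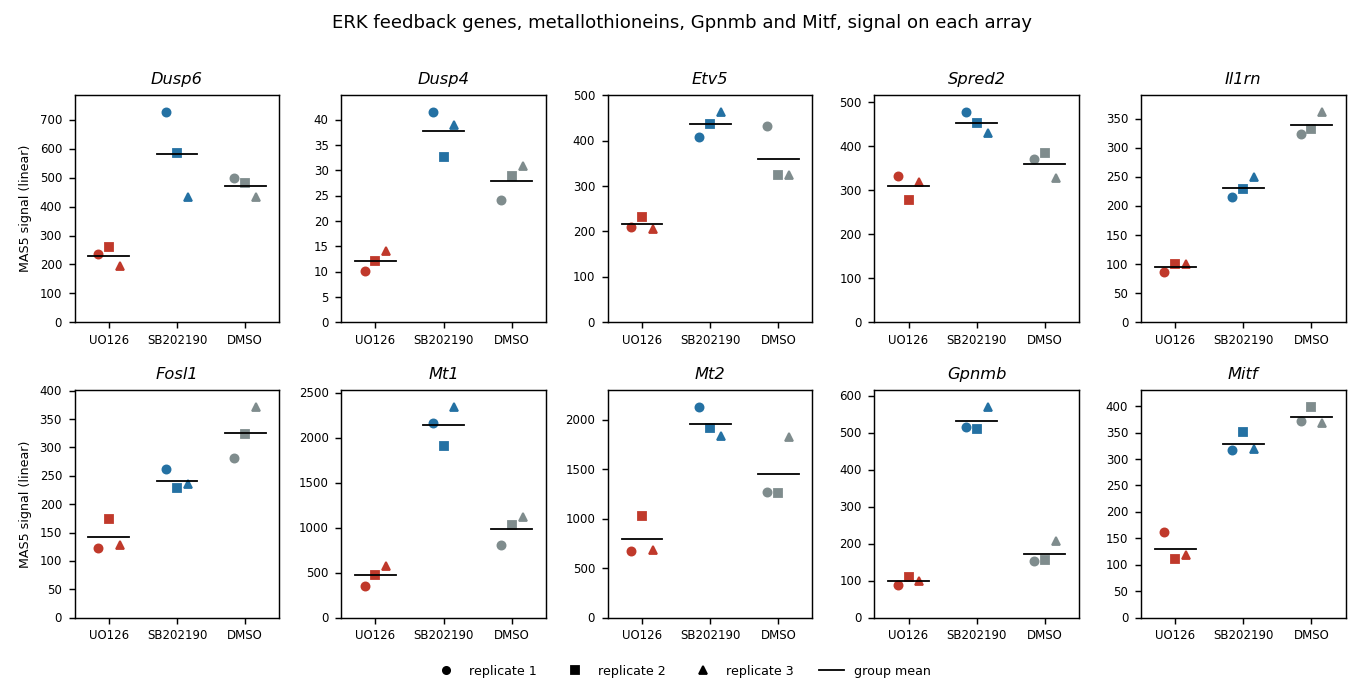
MAS5 signals of 6 ERK output genes and of Mt1, Mt2, Gpnmb and Mitf, 1 panel per gene, with UO126, SB202190 and DMSO from left to right on a linear axis from 0. Points are arrays, shapes are replicates and lines are group means, and UO126 is the lowest group in every panel. By group mean, SB202190 is above DMSO for Dusp6, Dusp4, Etv5, Spred2, Mt1, Mt2 and Gpnmb, and below it for Il1rn, Fosl1 and Mitf.

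Of 23 measured inflammatory genes with links to p38, none was higher and 3 were lower with UO126 than with SB202190 (2 without SB202190 replicate 2 and 5 without SB202190 replicate 3). Socs3, a feedback inhibitor of cytokine signalling, gave 397, 282 and 390.3 with UO126, against 772, 713 and 676 with SB202190 and 1017, 994 and 926 with DMSO (log2 difference -1.03 ± 0.19, adjusted p = 0.00333). The chemokine Cxcl12 gave 649, 585 and 598 with UO126, against 1003, 1021 and 989.9 with SB202190 and 659, 608 and 554 with DMSO (log2 difference -0.72 ± 0.08, adjusted p = 4.28e-05). Both inhibitors lay below DMSO for Socs3, UO126 further than SB202190, whereas for Cxcl12 UO126 overlapped DMSO and SB202190 stood above. The third, Ccl9, lost its call (adjusted p = 0.0123) without SB202190 replicate 2 (0.0603; 0.000465 to 0.0603 over all alternatives). Other members were uneven between replicates. The chemokine Cxcl1 gave 379, 411 and 132 with UO126, against 1547, 486 and 213 with SB202190, and SB202190 replicate 1 was the highest array by far. Ptgs2, the inducible cyclooxygenase, gave 516, 382 and 232 with UO126, against 313, 269 and 119 with SB202190. Il6, interleukin 6, stayed under 50 on all 6 arrays. None of these genes passed.

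The 35 measured genes of S phase and DNA replication had log2 differences of -0.54 to -0.03, with a median of -0.21 beside -0.02 over all genes. Of these 35, 4 passed on the lower side, Gins1, Pola2, Lig1 and Tk1 (4.78% of all genes were lower). No call was left without UO126 replicate 2, UO126 replicate 3 or SB202190 replicate 1. Gins1, a subunit of the replicative helicase, gave 136, 131 and 121 with UO126, against 170.3, 164 and 179 with SB202190 and 184, 156 and 162 with DMSO (adjusted p = 0.0467). Of 33 measured genes of G2 and mitosis, 3 were lower with UO126, Bub1, Cenpf and Ndc80, and 0 to 3 when 1 array was left out. Of 22 targets of p53, 2 were lower. One of these, Gadd45a, a stress-induced growth arrest gene, gave 101, 127 and 129 with UO126, against 284, 253 and 222 with SB202190 and 133, 149 and 148 with DMSO (log2 difference -1.09 ± 0.13, adjusted p = 7.49e-05), and SB202190 stood above both other groups.

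Actin and smooth muscle genes were higher with UO126. Of 21 measured cytoskeletal genes and SRF targets, 7 were higher and none was lower (4 without UO126 replicate 3 or SB202190 replicate 2). Myl9, a regulatory light chain of myosin, gave 1981, 2079.8 and 2194 with UO126, against 737, 851 and 849 with SB202190 and 964, 1161 and 1096 with DMSO (log2 difference 1.36 ± 0.09, adjusted p = 2.29e-07). Acta2, smooth muscle actin, gave 4529.9, 4301 and 5098 with UO126, against 3027, 2924 and 2675 with SB202190 and 2847, 3297 and 3549 with DMSO (log2 difference 0.69 ± 0.12, adjusted p = 0.00148). Cnn1, calponin, gave 136, 173 and 187 with UO126, against 9.09, 5.61 and 32.7 with SB202190 and 45.3, 59.7 and 90.1 with DMSO (adjusted p = 7.83e-05), and the SB202190 values are too low for a reliable size. Mylk, the kinase of myosin light chains, gave 689, 677 and 564 with UO126, against 353, 348 and 297 with SB202190 and 354, 363 and 284 with DMSO. For Acta2 and Mylk the SB202190 and DMSO arrays overlapped and UO126 stood above both. Neither of 2 further probe sets of Mylk passed (adjusted p = 0.257 and 0.136).

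Markers of the labelled cell type and of others the cultures could hold were read in the same way. Of 10 chondrocyte markers, all measured, 5 were higher and none was lower with UO126 (1 without UO126 replicate 3 or SB202190 replicate 1, 2 without SB202190 replicate 2, and 3 without UO126 replicate 2 or with arrays centred on their medians). Their summed signal was 34388 to 45882 with UO126, 25105 to 29168 with SB202190 and 24893 to 38228 with DMSO. Of 6 measured smooth muscle markers, 5 were higher, with a summed signal of 8408 to 9371 with UO126, 5405 to 5777 with SB202190 and 5356 to 6737 with DMSO. Of 5 measured osteoblast markers, 3 were higher (Sp7, Ibsp and Alpl), with a summed signal of 3502 to 3737 with UO126, 1414 to 1789 with SB202190 and 2713 to 3166 with DMSO. Of 12 fibroblast markers, 1 was higher (4 with quantile normalization) and 2 were lower, with a summed signal of 18133 to 21909 with UO126 and 16498 to 16870 with SB202190. The higher one was Tnmd, tenomodulin, a tendon and ligament protein, at 1003, 987 and 754 with UO126, against 424, 407 and 333 with SB202190 and 479, 473 and 355 with DMSO (log2 difference 1.23 ± 0.14, adjusted p = 5.68e-05). The part that differences in cell makeup had in the results on cartilage, mineralization and smooth muscle genes was not tested.

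No measured marker of adipocytes, epithelium, endothelium or osteoclasts was higher with UO126 at the threshold. Of 5 measured adipocyte markers, 2 were lower (1 without UO126 replicate 3 or SB202190 replicate 2 or 3), and Lpl and Retn, which did not pass, had a higher mean with UO126. Cebpa, a transcription factor of fat cells, gave 365, 415 and 291 with UO126, against 637, 617 and 534 with SB202190 and 453, 449 and 391 with DMSO (adjusted p = 0.00758). Pparg, another adipocyte factor, lost its call (adjusted p = 0.0121) without UO126 replicate 3 or SB202190 replicate 2 or 3 (0.0507 to 0.0658; 0.00108 to 0.0658 over all alternatives). Cd34, a surface protein of endothelial and progenitor cells, gave 71.9, 45.2 and 36.7 with UO126, against 191, 181 and 162 with SB202190 and 153, 152 and 121 with DMSO (log2 difference -1.85 ± 0.22, adjusted p = 8.8e-05). It was the only one of 10 endothelial markers that passed, and 7 of the 10 stayed under a group mean of 50 in all 3 groups. Of 7 measured epithelial markers, Krt18 and Krt19 were lower, and Krt19 (adjusted p = 0.0495) lost its call without any 1 array but UO126 replicate 2 (0.0517 to 0.183; 0.0286 to 0.183 over all alternatives). Of 4 measured osteoclast markers, 1 was lower, and Ctsk and Itgb3, which did not pass, had a higher mean with UO126. The lower one, Acp5, a phosphatase of osteoclasts, averaged 61.4 ± 18.8 with UO126 and 131 ± 16.8 with SB202190 (SD, n = 3 each, limma adjusted p = 0.00653). Of 20 macrophage and leukocyte markers, 11 stayed under a group mean of 50 in all 3 groups, and the summed signal of the other 9 was 956 to 1126 with UO126, 1026 to 1089 with SB202190 and 1041 to 1173 with DMSO. All 6 erythroid markers were under 50.

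F13a1, which encodes a subunit of the clot-stabilizing transglutaminase factor XIII and was among the genes the study followed individually, was the only one of 4 such genes that passed (2 did without SB202190 replicate 3). F13a1 had signals of 154, 172 and 141 with UO126, against 71.6, 63.9 and 62.6 with SB202190 and 197, 233 and 204 with DMSO. The SB202190 arrays were the lowest of the 9, and the log2 difference between the inhibitors was 1.24 ± 0.16 (adjusted p = 0.000169).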

How the data were processed

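RNA of each culture was hybridized to an Affymetrix MOE 430 2.0 array, and the authors deposited MAS5 signal intensity values, not log-transformed, with 45101 probe sets per array, 64 of them controls. Genes were named from GEO's platform annotation, which gave 1 symbol for 34958 probe sets, several for 932 and none for 9211, and 99.4% of the single symbols matched RefSeq's mouse table.

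For the fit, log2 was taken after raising signals below 1 to 1. Probe sets with a group mean of 50 or more in at least 1 of the 5 groups were kept. A linear model with 1 mean per group over all 15 arrays was fitted in limma 3.58.1 (R 4.3.3, empirical Bayes with a variance trend), two-sided, with Benjamini-Hochberg adjustment over 21765 probe sets and a threshold of 0.05. Differences are UO126 minus SB202190 or an inhibitor minus DMSO, on the log2 scale with SE, 3 arrays per group. The number of arrays limits the precision, and MAS5 signals under 50 are mostly noise. The fit was tested on simulated data.

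The members and the gene lists were chosen with earlier results of these data known. The genes named are the 12 largest differences each way among called genes whose higher group averaged 200 or more and whose arrays did not overlap (signals under 50 set to 50 for ranking, clone-named genes passed over), then, per list, the 6 called members of smallest p, 3 others by their place in the list, and the list's remaining called members. Promoters came from RefSeq, GRCm38.p6.

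Same-numbered arrays of UO126 and DMSO deviated together (r = 0.419, 0.235 and 0.223), so these are taken as pairs from the data, as the labels do not state a shared preparation. The reported fit did not use the pairs. Counts against DMSO are therefore unpaired wherever the replicate block is not named. Alternatives changed the scaling, filter, offset, floor, variance model, arrays in the fit and probe set, left out each array and added the replicate number as a block.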

Additional observations from a re-analysis of the deposited data

How the results depend on the processing

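The 1782 probe sets that differed between UO126 and SB202190 became 1003 with arrays centred on their medians, 1032 to 1534 without any 1 array, and 1360 to 1860 under the other alternatives of scaling, filter, offset, floor, variance model and arrays in the fit. The 584 between UO126 and DMSO became 280 when centred, 245 with only the groups compared in the fit, 1032 with the replicate block and 321 to 417 without any 1 array. The 619 between SB202190 and DMSO became 210 when centred, 410 without a filter, 181 with only the groups compared, 1224 with the replicate block and 213 to 541 without any 1 array. With the replicate number as a block, UO126 against SB202190 gave 2615 calls that included all 1782. The deviations of same-numbered arrays correlated at 0.125, 0.0583 and 0.264, and UO126 replicate 2 correlated best with SB202190 replicate 1 (0.064), so the numbers are not taken to pair these groups. Col10a1, not called in the reported fit, passed with the block (adjusted p = 5.27e-06) and with only the groups compared in the fit (0.0342).

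Without a test, 2165 of 20061 probe sets differed at least 1.4-fold between the means of UO126 and SB202190 (10701 without a filter, 1441 with a minimum of 100) and 341 at least 2-fold (3068 without a filter). The rule for named genes took in 268 genes, not all of them described above. Of the 166 that were called, 100 passed under every alternative and 61 lost their call without some single array. For 2 genes another probe set had the opposite sign, Fbln1 (0.0658, adjusted p = 0.941) and Ctsa (0.0434, adjusted p = 0.934), against a lower signal with UO126 in the main probe set. Besides the cases given above, another probe set did not pass for further called genes, among them Mknk2 (adjusted p = 0.0934) and Cebpb (0.0889). The causes were not tested. With 3 arrays per group, signals near 50 and changes under about 1.4-fold are the least certain.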

Other observations

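Genes of metabolism and stress responses differed in small numbers. Of 28 measured glycolysis and hypoxia genes, 4 were higher (Car9, P4ha1, P4ha2 and Higd1a) and 3 lower (Pfkp, Eno2 and Ndrg1) with UO126 than with SB202190, beside 4.99% and 4.78% of all genes. The higher count was 1 to 3 without any 1 of the 6 arrays. P4ha1 and P4ha2 encode subunits of the enzyme that hydroxylates proline in collagen. Of 29 genes of the amino acid response, 5 were higher (Chac1, Ddit4, Mthfd2, Gars and Nupr1) and 1 was lower (Cebpb), with 2 to 5 higher without any 1 array. Chac1, which degrades glutathione, had signals of 467, 547 and 586 with UO126, against 316, 347 and 396 with SB202190 and 334, 352 and 440.0 with DMSO (log2 difference 0.60 ± 0.12, adjusted p = 0.00504). UO126 stood above both other groups, which overlapped.

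Of 26 measured interferon-stimulated genes, none was higher and 3 were lower with UO126 (Irf9, Gbp2 and Psmb9), with 1 to 3 lower without any 1 array. Psmb9 lost its call (adjusted p = 0.000673) when signals under 50 were set to 50 (1; 4.19e-05 to 1 over all alternatives). Irf9 (0.0227) lost its call with arrays centred on their medians, with only the groups compared in the fit, and without UO126 replicate 1 or 2 or SB202190 replicate 1 or 2 (0.0164 to 0.111 over all alternatives). Gbp2 (0.0233) lost its call without UO126 replicate 1 or 3 or SB202190 replicate 1 or 2 (0.0572 to 0.107; 0.00852 to 0.107 over all alternatives). Of 19 matrix proteases and inhibitors, 3 were higher (Adamts4, Adamts12 and Timp3) and 1 was lower (Plat), with 1 to 3 higher without any 1 array. Adamts4, an aggrecanase, gave 189, 296 and 219 with UO126, against 138, 156 and 142 with SB202190 and 211, 196 and 205 with DMSO, and the adjusted p of 0.0331 became 0.0625 to 0.148 without UO126 replicate 2 or 3 or any SB202190 array (0.02 to 0.148 over all alternatives). In the prostaglandin list Ptgis was higher and Slco2a1 lower of 10 members, in the xenobiotic receptor list Tiparp was higher and Nfe2l2 lower of 7, and in the fatty acid list Elovl6 was lower of 16. Each of these 5 calls was lost under some alternative.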
